A study of Mus musculus with 64 samples.

Results

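The right ventricle (RV) of Pkp2-knockout mice given the low dose of an AAV9 vector carrying mouse Pkp2 was set against the RV of untreated knockout mice. The members were the 8 RV libraries whose titles give the dose 3E13 vg/kg (AAV_3E13) and the 4 RV libraries of knockout mice given vehicle (cKO), 12 of the 64 bulk RNA-seq libraries of the series, which come from 32 mice in 5 groups with the RV and the left ventricle (LV) sequenced separately. All 12 mice, C57BL6 by the series, carried floxed Pkp2 and a Cre recombinase that tamoxifen activates. The Cre was driven by the cardiac αMyHC promoter, so that the deletion was directed to cardiomyocytes. The cKO mice received HBSS, the buffer of the vector. The labels put the single injection of vector 1 week before tamoxifen, whereas a description of the sample sizes puts it 1 week after induction. The study's supplement also gives 1 week after the deletion for a dose series of this vector that includes 3E13 vg/kg. The order is therefore uncertain. Treated and WT hearts were collected 51 weeks after induction and untreated cKO hearts 4 weeks after it, so treatment, age and time since the deletion cannot be told apart, and the treated libraries are those of mice alive at collection. The 9 RV libraries of HBSS-treated Pkp2 fl/fl littermates without Cre (WT) give a reference level beside some of the results.

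Plakophilin-2, the protein made from Pkp2, is an armadillo-repeat protein of the desmosome, the junction that ties neighbouring cardiomyocytes together and anchors desmoplakin and the intermediate filaments. Loss-of-function variants of the human gene are a leading cause of arrhythmogenic right ventricular cardiomyopathy, in which the RV dilates, conducts poorly and is replaced in part by fibrous and fatty tissue. In failing myocardium, genes of the matrix and of immune cells are typically raised, and genes of oxidative metabolism and calcium cycling are typically reduced.

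The 12 libraries held between 8438813 and 12440975 estimated counts, of which 5810746 to 9542894 remained after mitochondrially encoded genes were left out. Those genes took a larger share in AAV_3E13 (29.5% ± 3.06, SD, n = 8) than in cKO (24.4% ± 1.07, SD, n = 4), a difference of 5.13 percentage points (exact permutation test, two-sided, p = 0.0202, where the smallest p the design allows is 0.00404). Over the 21 RV libraries of the 3 groups, the first principal component held 33.4% of the variance and placed the 4 cKO libraries between 57.5 and 106.5, the AAV_3E13 libraries between -26.5 and -0.511 and the WT libraries between -30.2 and -8.71. The cKO library of animal PKP2_HBSS_2006 lay farthest out, and values without it are given beside the results that it moved most. Animal numbers began with 2 in 5 treated and 2 cKO mice. In 3 treated mice they began with 5 and in 2 cKO mice with 3, so number series and treatment cannot be fully told apart. As read from the libraries, 3 treated mice were female-like and 5 male-like, against 2 and 2 in cKO. Levels are in CPM after removal of mitochondrial genes. Counts were scaled to the total of each library multiplied by its TMM factor, edgeR's scaling factor, computed over all libraries of the series. Gene length was not scaled for, so that levels compare a gene between libraries and not one gene with another. In bulk tissue, fewer cells of a type and less RNA per cell cannot be told apart.

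Pkp2 (GRCm39 chr16:16031144-16090586, plus strand) was measured at 39.4, 59.8, 98.5 and 37.8 CPM in the cKO RV of animals PKP2_HBSS_2006, PKP2_HBSS_2052, PKP2_HBSS_3213 and PKP2_HBSS_3217. In the 8 AAV_3E13 libraries it ranged from 155 to 404 CPM with a median of 298, and every treated library lay above every cKO library. The difference was 2.39 on the log2 CPM scale (exact permutation test, two-sided, p = 0.00404, the smallest this design can give). The treated level also lay above that of WT (150.2 CPM ± 20.4, SD, n = 9), by 0.99 on the log2 scale (SE 0.15, adjusted p = 0.000342 by edgeR's quasi-likelihood test, as are all adjusted p values below unless another test is named). Transcripts of the vector and of the animal's own gene were counted together, so that the sum cannot be divided between them.

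Across the transcriptome, 14051 genes were tested and the RV of AAV_3E13 and cKO mice differed widely in both directions. At an adjusted p under 0.05, 2719 genes were higher in AAV_3E13 (19.4% of those tested) and 3183 were lower (22.7%), with a median log2 fold change over all tested genes of -0.05. Past a 2-fold change there were 1125 higher and 1592 lower genes, and past a 4-fold change 190 and 448. In 1757 of the called genes every AAV_3E13 library lay above every cKO library (12.5% of those tested), and in 1674 every treated library lay below (11.9%). Those shares are the background against which the gene lists are read. The division between higher and lower genes moved with the scale: with library size alone, 1831 were higher and 4562 lower and the median of all genes shifted by -0.21, and limma on log2(TPM + 1) gave 4188 higher and 1366 lower with a shift of 0.29. An unequal-variance test on log2(TPM + 1) called fewer genes, 2300 higher and 728 lower, and its counts are given beside the lists that it changed most. A separate fit against WT tested 13246 genes, of which 1558 (11.8%) were higher and 1326 (10.01%) lower in AAV_3E13. Of the genes lower than in cKO, 2904 were also tested against WT, and 261 of them were higher than WT, 470 lower than WT and 2173 not called. Of the genes higher than in cKO, 2702 were tested against WT, with 641 higher, 136 lower and 1925 not called. The comparisons with cKO and with WT share the AAV_3E13 libraries.

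**Figure D1:**
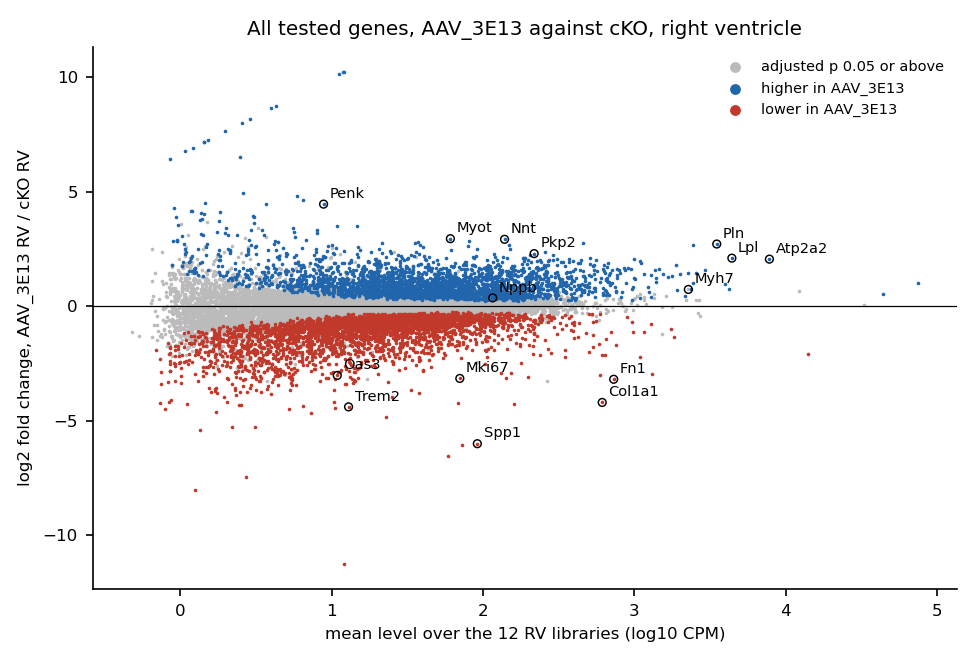
Log2 fold change of each of the 14051 tested genes (AAV_3E13 RV over cKO RV, vertical axis) against its mean level over the 12 libraries (log10 CPM, horizontal axis), with genes at an adjusted p under 0.05 in colour and some genes of the text labelled. Gm10123 and Gm15501, near the upper and lower end of the vertical axis, were at 0 in 1 group, and their fitted values are no measured folds. The 2719 higher and 3183 lower genes lie over the whole range of levels, and the lower genes reach larger changes, 448 past 4-fold against 190 higher ones.

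Collagen genes were lower in the treated RV. Of 19 tested collagens, 18 were lower than in cKO and none was higher, with a median log2 fold change of -2.15, and in 17 of them the groups did not overlap. With the unequal-variance test 12 were lower. Col1a1 (GRCm39 chr11:94827050-94843868, plus strand), the α1 chain of type I collagen, was measured at 2187, 1168, 1272 and 1989.9 CPM in cKO and at 51.7 to 117 CPM (median 95.8) in AAV_3E13 (log2 fold change -4.20, SE 0.21, adjusted p = 1.29e-07). Col3a1, the chain of type III collagen, stood at 2936, 2257, 2266 and 4910.5 CPM in cKO and at 183 to 619.8 CPM (median 423) in AAV_3E13 (log2 fold change -2.97, SE 0.30, adjusted p = 1.15e-05). For both chains every treated library lay below every cKO library. The treated levels nevertheless stayed above WT, by a log2 fold change of 0.75 for Col1a1 (adjusted p = 0.0162) and 1.15 for Col3a1 (adjusted p = 0.00311). Of the 17 collagens tested against WT, 8 were higher in AAV_3E13 and none was lower. Col14a1, a collagen that binds to fibril surfaces, was the one tested collagen not called against cKO and is named for that reason (log2 fold change -0.41, SE 0.40, adjusted p = 0.431).

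Matricellular proteins, which sit in the matrix and signal to cells, were lower than in cKO but mostly remained above WT. Of 26 tested, 18 were lower and 1 higher than in cKO (median log2 fold change -1.51), or 7 and 0 with the unequal-variance test, while 20 of the 24 tested against WT were higher in AAV_3E13 and none was lower. Tnc, tenascin-C, which is laid down in remodelling tissue, was measured at 585, 181, 676 and 304 CPM in cKO and at 11.3 to 55.8 CPM (median 16.0) in AAV_3E13. Its level in WT was 3.44 CPM ± 1.87 (SD, n = 9), so that Tnc was lower than in cKO by -4.28 on the log2 scale (SE 0.45, adjusted p = 1.41e-05) and higher than in WT by 2.75 (adjusted p = 0.000214). Cthrc1, a secreted protein of activated fibroblasts, fell to 0.244 to 3.18 CPM from 31.5, 14.4, 34.4 and 35.4 CPM (log2 fold change -4.45, SE 0.39, adjusted p = 6.12e-06). Fn1, fibronectin, was lower by -3.19 (SE 0.20, adjusted p = 8.41e-07), and no treated library of either gene reached the cKO range. Dcn, the small proteoglycan decorin, was the member that ran against the list, at 286, 528, 462 and 1249.8 CPM in cKO and 842 to 1625 CPM in AAV_3E13 (log2 fold change 0.83, SE 0.31, adjusted p = 0.0444). The groups overlapped for Dcn, and its call was lost on leaving out any one of the treated libraries of animals PKP2_m3e13_2029, PKP2_m3e13_2033, PKP2_m3e13_2048, PKP2_m3e13_5759 and PKP2_m3e13_5768 or the cKO libraries of animals PKP2_HBSS_2006, PKP2_HBSS_2052 and PKP2_HBSS_3213, with a log2 fold change of 0.59 (adjusted p = 0.119) without animal PKP2_HBSS_2006.

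Enzymes that cross-link, cleave or protect the matrix had 16 lower and 3 higher members among 26 tested (median log2 fold change -1.25), or 7 and 1 with the unequal-variance test. Loxl2, a lysyl oxidase that cross-links collagen, was lower in every treated library than in any cKO library (log2 fold change -1.85, SE 0.18, adjusted p = 8.66e-06), as was Mmp14, a membrane-bound metalloproteinase (-2.03, SE 0.21, adjusted p = 1.29e-05). P4ha3, a subunit of the prolyl hydroxylase that modifies collagen chains, was among the 10 largest falls, at 20.6, 17.1, 7.62 and 11.8 CPM in cKO against 0 to 1.66 CPM in AAV_3E13 (log2 fold change -4.47, SE 0.56, adjusted p = 4.21e-05). Timp1, an inhibitor of metalloproteinases, overlapped between the groups, with 39.4, 11.7, 36.1 and 25.1 CPM in cKO and 2.98 to 26.7 CPM (median 4.48) in AAV_3E13. Its log2 fold change of -1.76 (SE 0.54, adjusted p = 0.0182) became -1.55 without animal PKP2_HBSS_2006 (adjusted p = 0.0605). Against WT, Timp1 was higher by 3.26 (adjusted p = 0.000346). Mmp3 and Timp4 ran the other way: Mmp3, a secreted metalloproteinase, was higher than in cKO by 1.75 (SE 0.47, adjusted p = 0.00845) and higher than in WT by 1.803 (adjusted p = 0.000735), but not called against cKO in the animals whose numbers begin with 2 (1.71, adjusted p = 0.0982) or by the unequal-variance test (adjusted p = 0.0574), and Timp4, an inhibitor abundant in heart, was higher than in cKO by 1.78 (SE 0.42, adjusted p = 0.0038).

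Among 22 genes of the TGF-β pathway, which drives matrix synthesis, 8 were lower and 3 higher than in cKO, or 3 lower and 4 higher with limma on log2 TPM and 2 lower and none higher with the unequal-variance test. The 3 higher became 1 without any one of animals PKP2_HBSS_2006, PKP2_m3e13_2029, PKP2_m3e13_2045 and PKP2_m3e13_5768, and also with no filter on low counts. The ligand Tgfb1 was at 67.7, 50.9, 58.6 and 68.0 CPM in cKO and at 14.4 to 31.0 CPM in AAV_3E13 (log2 fold change -1.50, SE 0.19, adjusted p = 4.66e-05), and its treated level did not differ detectably from WT (log2 fold change 0.02, SE 0.16). Ltbp2, a secreted protein related to the binding proteins of latent TGF-β, was lower than in cKO by -2.20 (SE 0.47, adjusted p = 0.00189) but higher than in WT by 3.26 (adjusted p = 9.26e-05). The ligand Tgfb2, named here after its values were seen, was not called against cKO (log2 fold change 0.03, SE 0.15, adjusted p = 0.901) and stood above WT by 0.91 (adjusted p = 0.000549).
The 15 fibroblast genes were mixed, with 6 lower and 3 higher and a median of -0.33 that became 0.03 on the log2 TPM scale, where the unequal-variance test gave 4 lower and 1 higher. Thy1, a surface protein of fibroblasts and other cells, was lower (-1.95, SE 0.28, adjusted p = 0.00013), while Wif1, a secreted inhibitor of Wnt signalling, was higher (2.13, SE 0.60, adjusted p = 0.0107). The summed level of the fibroblast genes was 882 to 1981 CPM in cKO and 1403 to 2383 CPM in AAV_3E13, and these ranges overlapped.

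**Figure D2:**
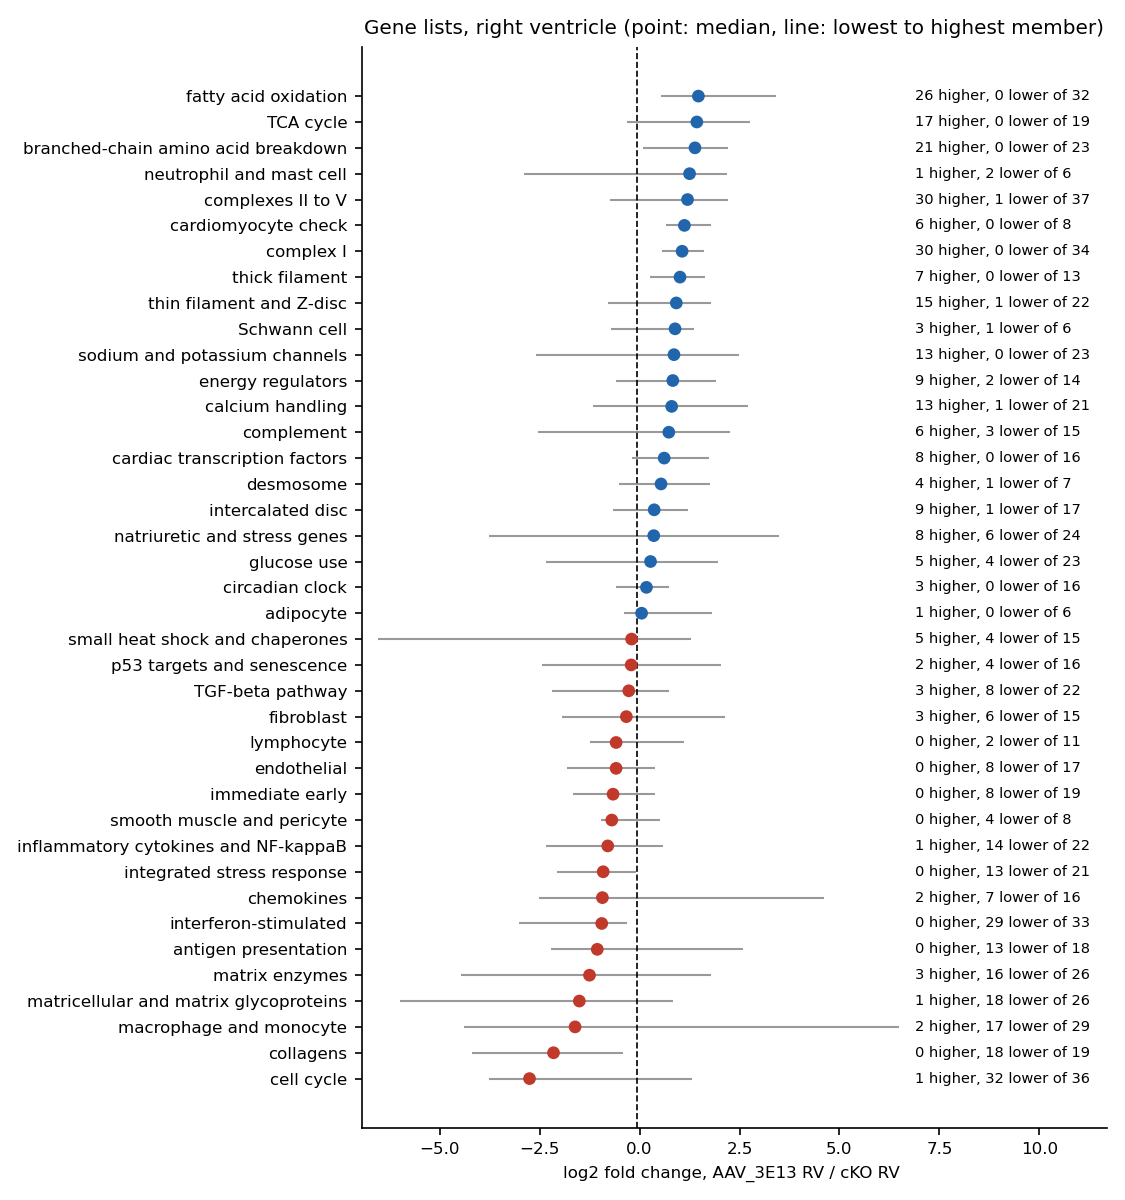
Median log2 fold change (AAV_3E13 RV over cKO RV, points) with the lowest and highest member (lines) of each gene list, and on the right the number of members higher and lower at an adjusted p under 0.05 out of those tested; the dashed line is the median of all tested genes, -0.05. Lists of cell cycle, collagen and macrophage genes lie to the left, and lists of oxidative metabolism to the right.

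Macrophage and monocyte genes were lower in the treated RV, with 17 lower and 2 higher of 29 tested (median log2 fold change -1.61), or 10 and 1 with the unequal-variance test. Trem2, a lipid receptor of macrophages, was at 60.8, 28.4, 17.5 and 34.8 CPM in cKO and at 1.30 to 2.44 CPM (median 1.60) in AAV_3E13, close to the 2.12 CPM ± 0.928 (SD, n = 9) of WT. Its log2 fold change was -4.40 (SE 0.28, adjusted p = 9.74e-07) against cKO and -0.30 (SE 0.28, adjusted p = 0.478) against WT. Spp1 (GRCm39 chr5:104582165-104589235, plus strand), which encodes osteopontin, a secreted glycoprotein of macrophages and other cells, was at 705, 126, 146 and 89.9 CPM in cKO and at 0.407 to 19.9 CPM (median 1.75) in AAV_3E13. The groups did not overlap, and its log2 fold change of -6.00 (SE 0.83, adjusted p = 8.88e-05) was -4.86 without the cKO library of animal PKP2_HBSS_2006 and -7.00 without the highest treated library, of animal PKP2_m3e13_2048. Adam8, a membrane protease of myeloid cells, was at 192, 21.8, 20.4 and 22.1 CPM in cKO and at 0.407 to 3.52 CPM in AAV_3E13, at -4.83 on the log2 scale (SE 0.61, adjusted p = 4.66e-05), or -3.25 without animal PKP2_HBSS_2006. Gpnmb, a glycoprotein of lipid-laden macrophages, was at 436, 127, 54.0 and 118 CPM in cKO and at 6.40 to 17.7 CPM in AAV_3E13 (log2 fold change -4.23, SE 0.43, adjusted p = 1.19e-05), or -3.35 without that animal. Atp6v0d2, a subunit of the vacuolar proton pump, was lower by -4.36 (SE 0.51, adjusted p = 2.91e-05), or -3.69 without it, and again the groups did not overlap. Retnla, a secreted protein of alternatively activated and resident macrophages, went the other way, at 0, 0, 0 and 0.0876 CPM in cKO, 1.17 to 6.51 CPM in AAV_3E13 and 5.63 CPM ± 2.83 (SD, n = 9) in WT.

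Chemokine, cytokine and antigen presentation genes had more members lower than higher, in counts that moved with the setting and with single libraries. Of 16 chemokines, 7 were lower and 2 higher, and the 7 became 4 without the cKO library of animal PKP2_HBSS_2006. The excess of lower chemokines was absent with limma on log2 TPM (3 higher, 3 lower), with the unequal-variance test (2 higher, 1 lower) and in the animals whose numbers begin with 2 (2 higher, 2 lower). Cxcl10, an interferon-induced ligand for T cells, was at 8.98, 6.51, 9.07 and 11.3 CPM in cKO and at 0.349 to 4.01 CPM in AAV_3E13 (log2 fold change -2.52, SE 0.49, adjusted p = 0.00101). The 2 higher chemokines, both without overlap, were Cxcl13, a B-cell attractant (log2 fold change 4.61, SE 1.06, adjusted p = 0.00323, or 3.69 without the treated library of animal PKP2_m3e13_2048, where it reached 41.3 CPM), and Ccl11, an eosinophil attractant (3.25, SE 0.58, adjusted p = 0.000555, or 4.16 without the cKO library of animal PKP2_HBSS_3213).
Of 22 cytokine and NF-κB genes, 14 were lower and 1 higher, and the 14 became 9 without animal PKP2_HBSS_2006, 5 with limma on log2 TPM, 4 with the unequal-variance test and 7 in the animals whose numbers begin with 2. Ptx3, a secreted pattern-recognition protein, was at 4.60, 4.69, 4.47 and 5.43 CPM in cKO and 0.542 to 1.40 CPM in AAV_3E13 (log2 fold change -2.34, SE 0.29, adjusted p = 4.48e-05).
Of 18 antigen presentation genes, 13 were lower and none higher (median log2 fold change -1.06), among them H2-K1, a class I heavy chain whose counts can be shared with close relatives (-1.18, SE 0.21, adjusted p = 0.000635). The unequal-variance test called none of these 18 lower, and limma on log2 TPM called 7 lower and 1 higher. Neutrophil and mast cell genes had 2 lower and 1 higher of 6, and none higher without animal PKP2_HBSS_2006 or PKP2_HBSS_2052. Lymphocyte genes were low in both groups, with summed levels of 30.7 to 106 CPM in cKO and 39.2 to 65.5 CPM in AAV_3E13. Of 11 tested members 2 were lower, near the 22.7% of all tested genes.

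Complement genes stood apart from the other immune lists, with 6 higher and 3 lower of 15 tested (median log2 fold change 0.73) and 9 of 14 higher than WT. C3, the central complement component, was at 178, 185, 199.7 and 776 CPM in cKO and at 679 to 1582 CPM (median 850.3) in AAV_3E13, overlapping only with the cKO library of animal PKP2_HBSS_3217. Its log2 fold change was 1.57 (SE 0.42, adjusted p = 0.00858), or 2.39 without that animal, and 1.204 against WT (adjusted p = 0.000267). C3ar1, the C3a receptor of myeloid cells, was instead lower (-2.54, SE 0.27, adjusted p = 1.6e-05), with no overlap. The 6 higher members became 3 without any one of the cKO libraries of animals PKP2_HBSS_2006, PKP2_HBSS_2052 (with 4 lower) and PKP2_HBSS_3213, and 10 without PKP2_HBSS_3217. They became 9 with limma on log2 TPM and 2, beside 2 lower, with the unequal-variance test.

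Most interferon-stimulated genes were lower in the treated RV, in numbers that depended on the setting. Of 33 tested, 29 were lower than in cKO and none was higher (median log2 fold change -0.95), and 1 of 33 was higher than WT and none lower. The 29 became 19 with limma on log2 TPM, 15 with the unequal-variance test and 13 in the animals whose numbers begin with 2, of which 5 were treated and 2 cKO, and none was higher in these settings. Their summed level was 1595 to 1889 CPM in cKO and 778 to 1500.2 CPM in AAV_3E13, with no overlap. Such genes are switched on through the interferon-stimulated response element (ISRE), searched here on both strands as GAAA, any 2 bases and GAAA. That motif was present in 14 of the 23 list promoters with an entry in RefSeq (60.9%) and in 943 of all 27025 promoters (3.49%), each window running from 250 bases before to 50 bases after the start. The 250 bases before the start of Oas3 (GRCm38.p6 chr5:120777660-120777909, minus strand) and Isg15 (GRCm38.p6 chr4:156200819-156201068, minus strand) are shown because these members had among the smallest p values of the list, with the motif in capitals and overlapping matches run together:
Oas3: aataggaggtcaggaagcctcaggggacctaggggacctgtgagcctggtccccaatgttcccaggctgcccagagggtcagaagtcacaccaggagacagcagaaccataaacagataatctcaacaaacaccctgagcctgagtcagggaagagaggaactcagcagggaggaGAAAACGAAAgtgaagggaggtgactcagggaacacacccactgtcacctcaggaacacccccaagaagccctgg
Isg15: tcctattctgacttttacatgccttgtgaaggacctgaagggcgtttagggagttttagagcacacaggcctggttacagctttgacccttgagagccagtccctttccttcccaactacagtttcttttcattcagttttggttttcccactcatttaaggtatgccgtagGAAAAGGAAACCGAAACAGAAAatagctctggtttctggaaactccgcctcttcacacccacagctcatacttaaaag

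Oas3, an enzyme that senses double-stranded RNA, was at 33.3, 18.4, 30.2 and 22.2 CPM in cKO and at 1.05 to 7.73 CPM (median 2.78) in AAV_3E13 (log2 fold change -3.02, SE 0.38, adjusted p = 4.87e-05). Isg15, a ubiquitin-like modifier, was at 7.55, 9.20, 16.4 and 9.02 CPM in cKO and at 1.34 to 4.58 CPM (median 1.84) in AAV_3E13 (-2.32, SE 0.32, adjusted p = 9.71e-05). Ddx58, which encodes the RNA sensor RIG-I, changed less but with little spread, from 108, 97.6, 106 and 100.3 CPM to 47.1 to 69.6 CPM (-0.95, SE 0.11, adjusted p = 3.13e-05). For all 3 genes the groups did not overlap, and the treated levels did not differ detectably from WT (adjusted p = 0.21, 0.498 and 0.946).

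Proliferation genes made up the list with the lowest median, 32 lower and 1 higher of 36 tested (median log2 fold change -2.75), and in 24 of the 32 the groups did not overlap. With the unequal-variance test 14 were lower and none higher, and the median on the log2 TPM scale was -1.58. Of the 36, only 21 were tested in the fit against WT, with 2 higher, 2 lower and 17 not called. Members that passed the filter on low counts only through cKO could hardly be called higher. The count of lower members may therefore be set in part by that filter. Mki67, the proliferation marker Ki-67, was at 302, 95.4, 211 and 76.2 CPM in cKO and at 10.8 to 27.7 CPM (median 19.9) in AAV_3E13 (log2 fold change -3.15, SE 0.32, adjusted p = 1.21e-05). Cenpe, a kinesin of the kinetochore named after its values were seen, was at 43.1, 14.4, 26.7 and 7.71 CPM in cKO and at 1.17 to 3.73 CPM in AAV_3E13 (-3.15, SE 0.40, adjusted p = 4.59e-05). The cKO libraries spread widely among themselves, with animals PKP2_HBSS_2006 and PKP2_HBSS_3213 the higher pair for both genes. Treated levels did not differ detectably from WT (log2 fold change 0.19, SE 0.27 for Mki67 and 0.26, SE 0.37 for Cenpe). Cenpf, a large kinetochore protein, ran the other way, at 70.7, 36.3, 75.7 and 21.6 CPM in cKO and 46.2 to 201 CPM in AAV_3E13 (1.32, SE 0.39, adjusted p = 0.0144), below the 200.3 CPM ± 36.0 (SD, n = 9) of WT. Promoters of cell cycle genes often hold CCAAT boxes, and CCAAT was found on either strand in 24 of 31 list promoters with an entry (77.4%) and in 10248 of all 27025 (37.9%). The 250 bases before the start of Mki67 (GRCm38.p6 chr7:135716380-135716629, minus strand) hold several, in capitals on either strand, and are shown for that reason:
Mki67: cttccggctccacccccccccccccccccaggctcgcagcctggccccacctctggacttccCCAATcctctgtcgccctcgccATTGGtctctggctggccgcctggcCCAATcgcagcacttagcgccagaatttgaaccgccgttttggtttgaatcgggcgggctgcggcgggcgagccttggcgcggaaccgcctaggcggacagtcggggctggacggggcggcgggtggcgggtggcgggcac

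Genes of mitochondrial energy metabolism were higher in the treated RV in all 5 lists of the pathway. Of 145 tested in 5 lists, 124 were higher than in cKO and 1 was lower, with a median log2 fold change of 1.28. Complex I had 30 higher of 34, complexes II to V 30 higher and 1 lower of 37, fatty acid oxidation 26 higher of 32, branched-chain amino acid breakdown 21 of 23 and the TCA cycle 17 of 19. The unequal-variance test called fewer higher, 10, 17, 13, 19 and 6 in these lists in the same order, and none lower. Beside these counts, the summed level of 8 ventricular cardiomyocyte markers was 7947 to 28773 CPM in cKO and 26486 to 42555 CPM in AAV_3E13, ranges that overlapped. Of the 8 markers, 6 were higher, or 8 with limma on log2 TPM and 1 with the unequal-variance test. The 6 became 4 without any one of animals PKP2_HBSS_2006, PKP2_HBSS_2052 and PKP2_m3e13_2047. The part of cardiomyocyte content in the metabolic differences was not tested. Cox6c, a subunit of cytochrome c oxidase, was at 58.8, 50.001, 129 and 91.8 CPM in cKO and at 301 to 493.1 CPM (median 399) in AAV_3E13 (log2 fold change 2.22, SE 0.24, adjusted p = 1.79e-05). Ndufs1, the largest core subunit of complex I, was at 127, 144, 271 and 181 CPM in cKO and at 475 to 638 CPM (median 541) in AAV_3E13 (1.59, SE 0.18, adjusted p = 2.69e-05). Both genes lay above every cKO library in every treated library, and neither differed detectably from WT (adjusted p = 0.958 and 0.302). Cox6a1, the form of that oxidase subunit found outside striated muscle, was the lower member (-0.75, SE 0.18, adjusted p = 0.00419), and its call was lost with gene length modelled (-0.22, adjusted p = 0.362) and its value turned to 0.07 on the log2 TPM scale.

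Among fuel-handling genes, Lpl, the lipase that frees fatty acids from lipoproteins, was at 889.9, 1208, 1832 and 1469.9 CPM in cKO and at 4651 to 7559.9 CPM (median 5598) in AAV_3E13 (log2 fold change 2.09, SE 0.21, adjusted p = 1.21e-05). Cd36, a fatty acid transporter, was higher by 1.60 (SE 0.15, adjusted p = 8.66e-06) and Decr1, an enzyme of unsaturated fatty acid breakdown, by 2.01 (SE 0.22, adjusted p = 2.03e-05). Ppm1k, the phosphatase that activates branched-chain keto acid breakdown, was at 43.6, 60.2, 68.2 and 61.3 CPM in cKO and at 242 to 384 CPM in AAV_3E13 (2.21, SE 0.16, adjusted p = 2.23e-06). Sucla2, a subunit of succinyl-CoA ligase, was higher by 2.35 (SE 0.25, adjusted p = 1.45e-05). For all 5 genes the groups did not overlap.
Glucose-use genes had 5 higher and 4 lower of 23 (12 and 2 with limma on log2 TPM, 2 and 1 with the unequal-variance test), near the 19.4% and 22.7% of all tested genes. Among them the insulin-responsive transporter Slc2a4 was higher (1.33, SE 0.28, adjusted p = 0.00206) and the lactate exporter Slc16a3 lower (-2.34, SE 0.38, adjusted p = 0.000268).
Of 14 regulators of energy metabolism, 9 were higher and 2 lower. The nuclear receptor Esrrg was at 20.3, 25.3, 29.96 and 27.8 CPM in cKO and at 88.3 to 126 CPM in AAV_3E13 (1.91, SE 0.14, adjusted p = 2.23e-06), and the fatty acid receptor Ppara was higher by 1.71 (SE 0.19, adjusted p = 2.37e-05). The estrogen-related receptor element AAGGTCA was found on either strand in 8 of 120 promoters of the metabolic lists (6.67%) and in 1259 of all 27025 (4.66%).

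**Figure D3:**
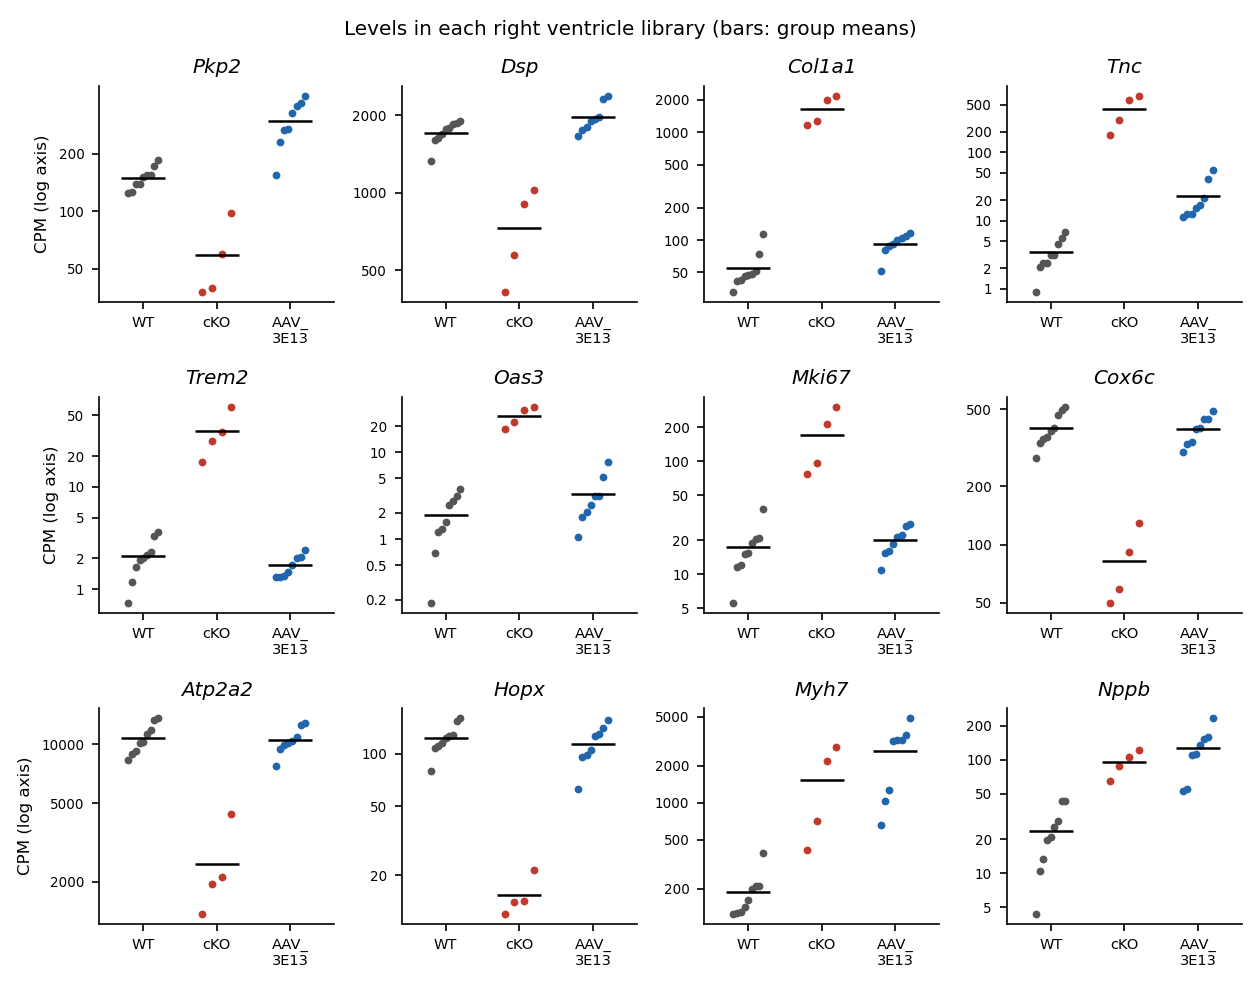
Level (CPM, log axis) of 12 genes in each RV library of WT (9), cKO (4) and AAV_3E13 (8), with bars at the group means. Pkp2 lies between 155 and 404 CPM in AAV_3E13, above both other groups in mean level; Col1a1, Mki67, Trem2 and Oas3 are far below cKO, Atp2a2, Cox6c and Dsp far above it, and Myh7 and Nppb overlap with cKO while their means stand above WT.

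The desmosome and the intercalated disc, in which Pkp2 acts, had more members higher than lower. Of 7 desmosome-related genes tested, a list that leaves Pkp2 itself out, 4 were higher and 1 lower. Dsp, desmoplakin, was at 413, 576, 1027 and 907 CPM in cKO and at 1670.0 to 2382 CPM (median 1913) in AAV_3E13 (log2 fold change 1.38, SE 0.22, adjusted p = 0.000248). Dsg2, a desmosomal cadherin, was at 35.8, 73.7, 75.8 and 46.4 CPM in cKO and at 171 to 269 CPM in AAV_3E13 (1.76, SE 0.21, adjusted p = 3.46e-05), and its partner Dsc2 was higher by 1.61 (SE 0.26, adjusted p = 0.000249). All 3 lay above cKO in every treated library and did not differ detectably from WT (adjusted p = 0.105, 0.39 and 0.23).
Among 17 other disc genes, 9 were higher and 1 lower, or 5 and 0 with the unequal-variance test. Gja1, which encodes connexin 43, the main ventricular gap-junction protein, was at 225, 278, 532 and 345 CPM in cKO and at 572 to 1003 CPM in AAV_3E13 (1.18, SE 0.22, adjusted p = 0.000692). Cdh2, N-cadherin, was higher by 1.21 (SE 0.14, adjusted p = 2.79e-05), and neither gene overlapped between the groups.

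Ion channel and calcium-cycling genes were higher in the treated RV. Of 23 sodium and potassium channel genes 13 were higher and none lower, and of 21 calcium-handling genes 13 were higher and 1 lower, or 8 and 0 with the unequal-variance test. Atp2a2 (GRCm39 chr5:122591575-122640903, minus strand), which encodes the calcium pump SERCA2, was at 1371, 1937, 4400.4 and 2110.3 CPM in cKO and at 7776 to 12839 CPM in AAV_3E13 (log2 fold change 2.05, SE 0.28, adjusted p = 8.86e-05), with a WT mean of 10755 CPM ± 1855 (SD, n = 9). Pln, its inhibitor phospholamban, was at 316, 714, 1053 and 818 CPM in cKO and at 4230.3 to 5589 CPM (median 4645) in AAV_3E13 (2.71, SE 0.27, adjusted p = 1.07e-05) and stood above WT by 0.33 (adjusted p = 0.0277). Ryr2, the calcium release channel, was higher than in cKO by 0.98 (SE 0.19, adjusted p = 0.00108) and lower than in WT by 0.26 on the log2 scale (adjusted p = 0.0243). Kcnj2, an inward-rectifier potassium channel, was at 19.6, 51.0, 69.6 and 40.9 CPM in cKO and at 139 to 231 CPM in AAV_3E13 (1.83, SE 0.27, adjusted p = 0.000123), and Kcnj3, a subunit of the acetylcholine-regulated channel, was higher by 2.48 (SE 0.34, adjusted p = 8.56e-05). Atp2a2 and Ryr2 were named after their values were seen.

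Sarcomere genes had 7 higher and none lower of 13 thick-filament members, and 15 higher and 1 lower of 22 thin-filament and Z-disc members. With the unequal-variance test 1 thick-filament and 8 thin-filament and Z-disc members were higher, and none was lower. Myot, the Z-disc protein myotilin, was among the 10 largest rises, at 5.69, 4.98, 24.2 and 9.11 CPM in cKO and at 49.2 to 140.0 CPM (median 77.2) in AAV_3E13. Its log2 fold change of 2.94 (SE 0.44, adjusted p = 0.000167) became 3.65 without the cKO library of animal PKP2_HBSS_3213, and it stood above WT by 1.06 (adjusted p = 0.00134). Tnni3, cardiac troponin I, was higher by 1.78 (SE 0.30, adjusted p = 0.000394), Myl2, the ventricular regulatory light chain, by 1.56 (SE 0.29, adjusted p = 0.000738), and Myoz2, a Z-disc protein, by 1.71 (SE 0.21, adjusted p = 3.67e-05). The lower member was Tpm2, β-tropomyosin (-0.79, SE 0.21, adjusted p = 0.0071). Of 16 cardiac transcription factors, 8 were higher and none lower, or 14 higher with limma on log2 TPM. Tead1, a partner of YAP that binds muscle promoters, was at 164, 103, 104 and 161 CPM in cKO and at 359 to 593 CPM in AAV_3E13 (1.74, SE 0.18, adjusted p = 1.22e-05), above WT by 0.87 (adjusted p = 0.00219), and Tbx5, a T-box factor of the heart, was higher by 1.71 (SE 0.26, adjusted p = 0.000179). Hopx, a homeodomain protein that interacts with cardiac regulators, was at 12.04, 14.2, 21.5 and 14.01 CPM in cKO and at 62.4 to 156 CPM in AAV_3E13 (2.84, SE 0.25, adjusted p = 6.21e-06).

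Genes used as markers of cardiac stress did not move together. Of 24 natriuretic and stress genes, 8 were higher and 6 lower than in cKO, beside 19.4% higher and 22.7% lower of all tested genes. The share lower was thus near that of all tested genes. The 6 became 3 without the cKO library of animal PKP2_HBSS_3217, 2 with limma on log2 TPM and 0 with the unequal-variance test. Nppa, the precursor of atrial natriuretic peptide, was at 402, 210.2, 304 and 581 CPM in cKO and at 31.1 to 333 CPM (median 103) in AAV_3E13, with overlapping groups. Its log2 fold change was -1.50 (SE 0.54, adjusted p = 0.0396), and the call was lost without any one of the cKO libraries of animals PKP2_HBSS_2006, PKP2_HBSS_3213 and PKP2_HBSS_3217 or of the treated libraries of animals PKP2_m3e13_2029, PKP2_m3e13_2045, PKP2_m3e13_5759 and PKP2_m3e13_5809, the value nearest to 0 being -1.21 (adjusted p = 0.129) without animal PKP2_HBSS_3217. Nppb, the precursor of B-type natriuretic peptide, was not called, at 105, 64.9, 123 and 87.6 CPM in cKO and 52.8 to 235 CPM (median 123) in AAV_3E13 (0.36, SE 0.34, adjusted p = 0.419). Its WT level was 23.3 CPM ± 13.6 (SD, n = 9), below the treated level by a log2 fold change of 2.43 (adjusted p = 0.000353).
Myh7 (GRCm39 chr14:55208141-55232084, minus strand), the fetal β-myosin heavy chain of mouse ventricle, was at 706, 2202, 415 and 2842 CPM in cKO and at 653 to 4916 CPM (median 3216) in AAV_3E13 (log2 fold change 0.73, SE 0.57, adjusted p = 0.333). Against the 188 CPM ± 84.5 (SD, n = 9) of WT, Myh7 was higher in AAV_3E13 by 3.82 (SE 0.37, adjusted p = 1.64e-05). Ankrd1, a titin-associated stress protein, and Acta1, skeletal α-actin, were likewise not called against cKO (0.60, SE 0.33, adjusted p = 0.167, and -0.35, SE 0.68, adjusted p = 0.713) and stood above WT (1.85, adjusted p = 0.000346, and 2.10, adjusted p = 0.00577). Ankrd1 was called without the treated library of animal PKP2_m3e13_5809 (0.74, adjusted p = 0.0458). Ankrd1, Acta1 and Myh7 were named after their values were seen. Sprr1a, a stress-induced protein of the cornified envelope family, was instead lower than in cKO without overlap, at 52.3, 8.14, 38.8 and 23.8 CPM against 1.08 to 4.70 CPM (-3.42, SE 0.41, adjusted p = 3.37e-05).

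**Figure D4:**
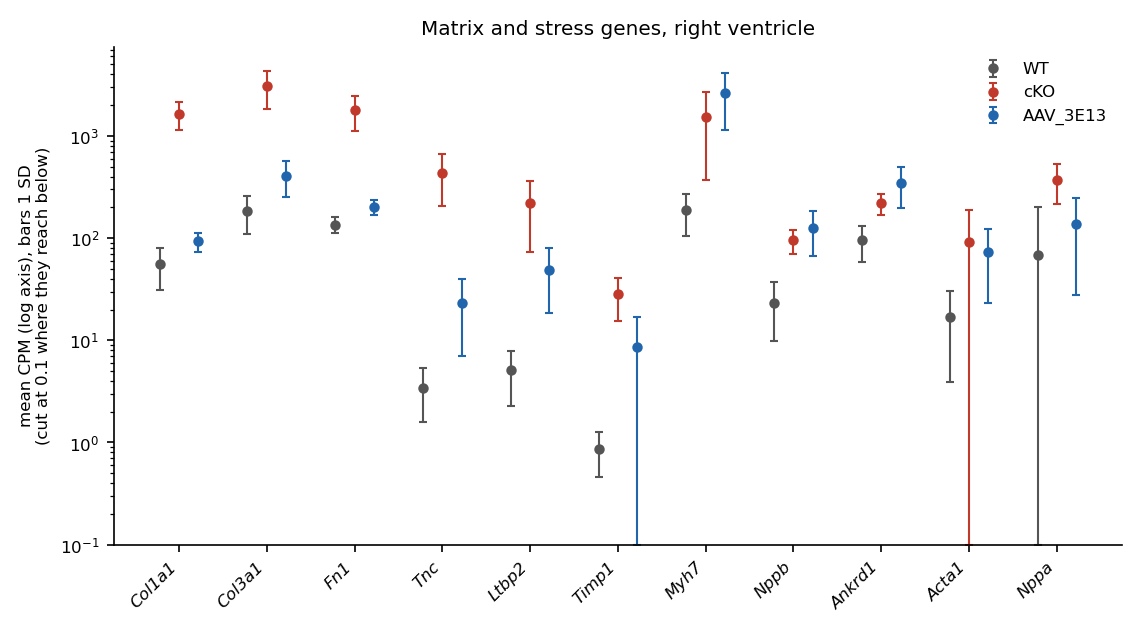
Mean level (CPM, log axis, bars of 1 SD) of matrix and stress genes in the RV of WT (n = 9), cKO (n = 4) and AAV_3E13 (n = 8). Tnc, Ltbp2 and Col3a1 in AAV_3E13 lie between cKO and WT, whereas Myh7, Nppb and Ankrd1 stand at or above the cKO mean and above the WT mean.

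Stress-response genes of other kinds moved in both directions, and some counts rested on single libraries. Of 21 genes of the integrated stress response, 13 were lower and none higher, a count that became 8 without the cKO library of animal PKP2_HBSS_2006 and 8 without the treated library of animal PKP2_m3e13_5809, 6 with limma on log2 TPM and 3 with the unequal-variance test. Atf3, a stress-induced transcription factor, was at 39.4, 12.2, 12.7 and 12.3 CPM in cKO and at 3.39 to 8.26 CPM in AAV_3E13 (log2 fold change -1.81, SE 0.34, adjusted p = 0.000784), or -1.19 without animal PKP2_HBSS_2006. Of 15 small heat shock proteins and chaperones, 5 were higher and 4 lower, beside 19.4% higher and 22.7% lower of all tested genes. The share lower was near that of all tested genes. The counts became 3 and 2 without animal PKP2_HBSS_2006. The small heat shock proteins Hspb6 (log2 fold change 1.28, SE 0.27, adjusted p = 0.00178) and Hspb7 (1.17, SE 0.23, adjusted p = 0.0013) were higher, with every treated library above every cKO library. Hspb6 was not called by the unequal-variance test (adjusted p = 0.0689). The inducible chaperone genes Hspa1a and Hspa1b, near-identical copies whose counts can be exchanged, rested on 1 library. Hspa1a (GRCm39 chr17:35188166-35191132, minus strand) was at 682 CPM in animal PKP2_HBSS_2006 and at 3.83, 5.52 and 3.24 CPM in the other cKO libraries, and Hspa1b at 813 CPM and 5.36, 10.5 and 10.9 CPM. Their log2 fold changes of -6.55 and -6.05 (adjusted p = 0.000853 and 0.00069) became -1.17 (adjusted p = 0.0736) and -1.48 (adjusted p = 0.0166) without that library. Of 19 immediate-early genes, 8 were lower and none higher, or 5 without animal PKP2_HBSS_2006 and 2 higher and 2 lower with limma on log2 TPM, with Junb at 31.9, 21.8, 37.6 and 25.0 CPM in cKO and 6.16 to 15.7 CPM in AAV_3E13 (-1.65, SE 0.25, adjusted p = 0.000159).
Of 16 p53 targets, 4 were lower and 2 higher, which does not stand out from the 22.7% lower and 19.4% higher of all tested genes. Phlda3 was lower (-1.57, SE 0.24, adjusted p = 0.000194), and Ccng1, cyclin G1, was at 169.9, 206, 443 and 433 CPM in cKO and at 1022 to 1693 CPM in AAV_3E13 (2.05, SE 0.26, adjusted p = 4.91e-05), above WT by 0.55 (adjusted p = 0.00195).

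The largest rises by the rule included secreted peptides and metabolic enzymes. Penk, the precursor of enkephalins, was at 0.109, 0.192, 0.788 and 1.14 CPM in cKO and at 4.15 to 19.3 CPM in AAV_3E13 (log2 fold change 4.45, SE 0.58, adjusted p = 6.05e-05), or 5.13 without the cKO library of animal PKP2_HBSS_3217. Edn3, the precursor of endothelin-3, was at 0.766, 0.0958, 0.657 and 3.68 CPM in cKO and at 5.06 to 31.5 CPM in AAV_3E13 (3.50, SE 0.69, adjusted p = 0.00115), or 4.91 without that library, and stood above WT by 1.71 (adjusted p = 0.00219). Inmt, a methyltransferase, was higher by 3.47 (SE 0.63, adjusted p = 0.000613), or 4.48 without it, and Aox3, an aldehyde oxidase, by 3.19 (SE 0.48, adjusted p = 0.000153). Nnt, the mitochondrial transhydrogenase that makes NADPH and is disrupted in some laboratory substrains, was at 34.7, 19.3, 36.0 and 10.9 CPM in cKO and at 73.2 to 277 CPM in AAV_3E13 (2.91, SE 0.43, adjusted p = 0.000139). The series names C57BL6 mice and no substrain.
Transcripts Gm10123 and Gm15501 headed the rule at each end. Gm10123 was at 0 in all 4 cKO libraries and at 9.46 to 23.1 CPM in AAV_3E13, at least 233.9-fold higher against a floor of 3 counts over the cKO group. Gm15501 was at 0 in all 8 treated libraries and at 39.1, 33.0, 22.5 and 50.4 CPM in cKO, at least 742.9-fold lower against the same floor over the treated group. Both are predicted genes whose reads may be divided with near-identical copies, and their values are uncertain.

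Vascular genes were lower in part. Of 17 endothelial genes 8 were lower and none higher than in cKO, and 8 of 17 were also lower than WT. Cdh5, vascular endothelial cadherin, was at 443, 553, 463 and 648 CPM in cKO, at 272 to 414 CPM in AAV_3E13 and at 440.1 CPM ± 69.4 (SD, n = 9) in WT, lower by -0.71 (SE 0.14, adjusted p = 0.00142) and -0.40 (adjusted p = 0.0142). The unequal-variance test called none of the 17 lower than in cKO and 1 higher, and limma on log2 TPM called 1 lower and 3 higher. Of 8 mural cell genes, 4 were lower, or 1 lower and 1 higher with limma on log2 TPM and none either way with the unequal-variance test. Their summed level was 1222 to 2183 CPM (median 1378) in cKO and 1569 to 2119 CPM (median 1866) in AAV_3E13, with overlapping ranges. Adipocyte genes had 1 higher and none lower of 6, Schwann cell genes 3 higher and 1 lower of 6, and clock genes 3 higher of 16. For the adipocyte and clock genes the share higher was near the 19.4% of all tested genes. Atrial markers summed to 1.93 to 19.9 CPM in AAV_3E13, 1.64 to 3.45 CPM in cKO and 1.86 to 237 CPM (median 3.14) in WT. The highest WT library thus lay far above all libraries of the other groups, and the 1 atrial marker tested against WT was lower in AAV_3E13 (log2 fold change -3.04). Skeletal muscle markers stayed under 3 CPM in every AAV_3E13 and cKO library, and no red blood cell gene was called.

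The same treatment comparison in the LV of these animals asked whether the RV differences were larger. Fitted on its own, the LV had 2517 of 13964 genes called in either direction (18.02%). The difference between the ventricles was then tested gene by gene over both. None of 14689 genes passed (0%), the smallest adjusted p being 0.150, while 2161 had an unadjusted p under 0.05 and DESeq2 called 258. With the animal as a replicate block, which pairs the ventricles of each mouse, 289 genes passed (1.97%). Glis2, a zinc-finger factor, was lower in the RV by -1.19 (SE 0.15) and in the LV by -0.04, with an adjusted p for the difference of 0.15, or 0.0407 with the block. Dsg2 was higher by 1.76 in the RV and 0.94 in the LV (block adjusted p = 0.0431), and Gja1 by 1.18 and 0.47 (0.0407). Hopx gave 2.84 and 1.81 (0.0407), Cd36 1.60 and 0.82 (0.046) and Junb -1.65 and -0.19 (0.0407). In these 6 genes the value in the RV was the larger in size. The rule takes 5 genes by the smallest p of the ventricle difference fitted without the block, so not all 6 came from it. Genes picked by that difference cannot show a larger response of the RV as a whole. For Pkp2 itself the values were 2.29 and 2.12, with a block adjusted p of 0.65. By list, collagens had 18 lower of 19 in the RV and 15 of 18 in the LV, interferon-stimulated genes 29 of 33 and 9 of 33, complex I 30 and 21 higher of 34, and antigen presentation 13 and 1 lower of 18. Some other lists changed little: cell cycle genes had 32 and 31 lower of 36, and sodium and potassium channels 13 and 13 higher of 23. Branched-chain amino acid breakdown had 21 and 19 higher of 23, and complement 6 and 9 higher of 15. Over all genes the RV fit called 5902 of 14051 and the LV fit 2517 of 13964. Fewer LV calls in a list therefore do not by themselves show a larger RV difference.

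Among the 8 treated RV libraries, the level of Pkp2 was set against 6 genes on the log2 CPM scale, with exact permutation tests and p values adjusted over the 6 relations. All 6 coefficients were negative and none passed after adjustment. Col3a1 gave Pearson r = -0.73 (exact permutation p = 0.0227, adjusted 0.105) and Spearman rho = -0.76 (exact permutation p = 0.0368, adjusted 0.110). Nppa gave r = -0.71 (exact permutation p = 0.0426, adjusted 0.105) and rho = -0.62 (exact permutation p = 0.115). Col1a1 gave r = -0.59 (exact permutation p = 0.0524, adjusted 0.105) and rho = -0.83 (exact permutation p = 0.0154, adjusted 0.0923). Timp1 gave r = -0.68 (exact permutation p = 0.108) and rho = -0.55 (exact permutation p = 0.171). For Nppb r was -0.48 (exact permutation p = 0.208) and rho -0.45 (exact permutation p = 0.267), and for Myh7 r was -0.28 (exact permutation p = 0.534) and rho -0.40 (exact permutation p = 0.327). Without the 2 libraries farthest from the median Pkp2 (animals PKP2_m3e13_5768 and PKP2_m3e13_2045), r over the remaining 6 was -0.76 for Col3a1, -0.62 for Nppa, -0.63 for Col1a1, -0.77 for Timp1, -0.25 for Nppb and -0.31 for Myh7. The library of animal PKP2_m3e13_5768 had the lowest Pkp2 of the treated group (155 CPM) and the highest Nppa (333 CPM). The animals differed in number series and in sex as read from the libraries, and no series held 6 treated animals, so that no value within a series is given.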

How the data were processed

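Bulk RNA of the RV and LV was sequenced from each mouse. Per the labels and the study's methods, reads were trimmed with fastp, quantified with Salmon 1.8.0 against GENCODE transcripts on GRCm39 and summed to genes with tximport. The authors deposited estimated counts per gene, which were rounded to whole numbers here, together with TPM and effective lengths. The labels name polyA RNA while the methods name a ribosomal depletion kit, so the selection of RNA is uncertain. The table held 39153 rows, of which 37 mitochondrially encoded genes and 1 row with no name (at most 0.00113% of counts in these libraries) were left out.

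The 8 AAV_3E13 and 4 cKO RV libraries were compared with edgeR 4.0.16 in R 4.3.3 (TMM factors, filterByExpr, quasi-likelihood F test, two-sided), with Benjamini-Hochberg adjustment over all genes tested and a threshold of 0.05. The comparison with WT and the RV against LV difference were fitted in the same way. No block was used in the first 2. The ventricles of a mouse are paired by the labels (median correlation of their deviations 0.213, over 0.1 in 9 of 12 mice), so the third is also given with the animal as a replicate block. DESeq2 1.42.0, limma 3.58.1 on log2(TPM + 1) and the other alternatives are described in the closing section. Single values were tested by exact permutation with scipy 1.17.1. The scripts were tested on simulated data. Replicate libraries differed by more than sampling noise (chi-square per degree of freedom 12.2 to 72.6), and each library is a separate mouse.

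The lists held 821 symbols in 42 lists, of which 820 were found. Genes named are Pkp2, the transcripts followed by RT-qPCR in the study, the 10 largest rises and falls among called genes of at least 10 CPM without overlap, up to 3 members of each list with the smallest p in its main direction and up to 2 against it, and 5 genes of the ventricle difference; exceptions are marked. The comparison, members and lists were chosen with earlier results of these data known. Promoters are RefSeq's on GRCm38.p6 and gene positions GENCODE's on GRCm39, and coordinates of one build do not apply to the other. Depth is given in the report, and counting error is part of the spread between libraries. One item is not reported here.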

Additional observations from a re-analysis of the deposited data

Results flagged for a closer look

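Of 182 groups of libraries examined, which were the AAV_3E13 RV and cKO RV values of each gene named above and the mitochondrial share, 20 (11.0%) held a library far from the rest of its group by Dixon's gap test. For normally distributed values chance alone would give about 1 in 20. The test was run on CPM without a log scale, so the 11.0% cannot be read against that rate. Hspa1a and Hspa1b, whose counts can be exchanged, were counted separately. The causes were not tested.

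The cKO RV library of animal PKP2_HBSS_2006 stood apart in 5 genes. It held 704.8 CPM of Spp1 against 89.9 to 146 in the other cKO libraries, 191.8 of Adam8 against 20.4 to 22.1, 39.4 of Atf3 against 12.2 to 12.7, 682 of Hspa1a against 3.24 to 5.52 and 813 of Hspa1b against 5.36 to 10.9.

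The cKO RV library of animal PKP2_HBSS_3217 stood apart in 4 genes. It held 776 CPM of C3 against 178 to 199.7, 713 of Cd36 against 543 to 566, 20.3 of Phlda3 against 13.3 to 14.3 and 0.0876 of Retnla where the other 3 held none. The cKO RV library of animal PKP2_HBSS_3213 held 2.10 CPM of Ccl11 against 0.287 to 0.525.

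Among the AAV_3E13 RV libraries, animal PKP2_m3e13_2048 held 19.9 CPM of Spp1 against at most 6.62 in the other 7 and 41.3 of Cxcl13 against at most 11.3. Animal PKP2_m3e13_2029 held 13.7 CPM of Wif1 against at most 6.48 and 384 of Ppm1k against at most 296. Animal PKP2_m3e13_5809 held 21.5 CPM of Tpm2 against at most 15.2, 20.7 of Aox3 against at most 12.96 and 9.46 of Gm10123 against at least 17.0. Animal PKP2_m3e13_5768 held 9.60 CPM of Phlda3 against at most 5.83, and its mitochondrial share of 22.9% lay below the 28.6% to 33.5% of the others. Animal PKP2_m3e13_2045 held 4.58 CPM of Isg15 against at most 2.35.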

How the results depend on the processing

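Pkp2 kept its direction and side of the threshold in every alternative run (2.09 to 2.595 on the log2 scale, and 2.22 to 2.68 without single libraries), as did the mitochondrial share (15.4 percentage points as a share of TPM, 4.56 to 6.08 without single libraries). The number of genes called between AAV_3E13 and cKO stayed between 4826 and 6835 except with an unequal-variance test on log2(TPM + 1), which called 3028 (728 lower). limma on that scale gave 4188 higher and 1366 lower, and library size alone 1831 and 4562, so that higher genes made up 75.4% and 28.6% of the calls against 46.1% in the report. Against WT, the same 2 tests gave 2542 higher and 350 lower (limma) and 2359 higher and 261 lower (unequal variance). Leaving out 1 library gave 5083 to 5856 calls against cKO (2345 to 2802 higher, 2708 to 3118 lower) and 2163 to 3272 against WT (1215 to 1736 higher, 948 to 1536 lower). For the RV against LV difference, where edgeR without a block called none, DESeq2 called 258, the animal as replicate block 289, and leaving out 1 mouse 0 to 3, with 1 without the cKO animal PKP2_HBSS_2006 and 3 without the cKO animal PKP2_HBSS_3217. The block bears on the ventricle difference alone, since the other comparisons are between different mice. The cause of these differences was not tested.

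Of 91 genes named, 85 were called, and 7 of them lost the call in some setting other than the log2 TPM tests, 4 of these on leaving out 1 library (Nppa, Dcn, Timp1 and Hspa1a) and 3 in other settings (Cox6a1, Cxcl13 and Mmp3). The unequal-variance test left 20 uncalled. Cox6a1 turned to 0.067 on the log2 TPM scale. Of 42 lists, 12 changed a count by over 1.5 times or their median's sign in the animals whose numbers begin with 2 alone, 16 with limma on log2 TPM and 29 with the unequal-variance test. None of the 6 relations with Pkp2 passed in any setting. Depth limits genes near 1 CPM, where the shallowest library, of 5810746 counts, holds a few reads.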
